A study of Mus musculus with 12 samples.

Results

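The genes described are the cytosolic ribosomal proteins of the mouse, the proteins that surround ribosomal RNA in the large (60S) and small (40S) subunit of the cytoplasmic ribosome. A gene was a member where a probe set of the array carried its symbol alone, with a name of the form Rpl or Rps and a number, Rplp0 to Rplp2 or Rpsa, and each gene was represented by its brightest probe set. This gave 42 of the 18193 genes that have a probe set of 1 symbol, 22 of the large subunit and 20 of the small subunit. RNA was taken from the prefrontal cortex of C57BL/6J mice that had been obtained at 10 weeks of age. They were then kept for 2 weeks in 12 h of light and 12 h of darkness, with food and water at all times. At each zeitgeber time (ZT, hours after lights on) 3 mice were killed: ZT3 and ZT9 in the light, ZT15 and ZT21 in the dark. Each mouse was hybridised to 1 Affymetrix Mouse430_v2 array, and no mouse was treated or genetically altered. The tissue was a block of frontal cortex cut by hand, so neurons, glia and vessels were measured together, and fewer cells of a type and less RNA per cell cannot be told apart.

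A ribosome holds nearly all of its proteins in equal numbers, and their mRNAs are among the most abundant of most cells. In mammals most of these mRNAs begin with a run of pyrimidines, the 5′ terminal oligopyrimidine (TOP) motif, through which mTOR signalling adjusts their translation rather than their abundance. Many ribosomal protein genes have processed pseudogenes, whose sequence a 25-mer probe may not tell from that of the active gene.

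Promoter letters were not used in the choice by name. Promoter sequences from RefSeq (GRCm38.p6) were at hand for 37 of the 42 genes, which are described here by counts, with no test. A run of 8 or more pyrimidines that reaches within 5 bases of the annotated start was present in 16 of the 37 genes, 9 of the large and 7 of the small subunit. That is 43.2% of them, against 10.96% of all 27025 genes of the table and 12.5% of the 9528 genes that were both tested and listed. The median length of the longest run near the start was 6 bases in members and 4 bases in all genes. The windows of 30 bases around the start (15 before it and 15 from it on) are shown for some of the members named below. Runs of 8 or more are more frequent among those shown than among the 37 genes. The pyrimidine run is in capitals and can go on outside the window.
Rps9: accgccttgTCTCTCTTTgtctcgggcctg
Rpl35: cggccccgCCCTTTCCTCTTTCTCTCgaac
Rpl13a: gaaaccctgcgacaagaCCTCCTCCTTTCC
Rpl27a: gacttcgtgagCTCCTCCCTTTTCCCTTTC
Rps10: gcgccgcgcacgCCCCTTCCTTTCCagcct
Rplp2: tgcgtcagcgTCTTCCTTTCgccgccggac
Rps6: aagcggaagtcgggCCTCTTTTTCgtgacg
Rps25: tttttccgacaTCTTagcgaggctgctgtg
Rps28: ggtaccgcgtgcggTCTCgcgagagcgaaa
Rps3: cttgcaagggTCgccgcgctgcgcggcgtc
The windows lie at chr7:3704026-3704055 (+) for Rps9, chr2:39005117-39005146 (−) for Rpl35, chr7:45128731-45128760 (−) for Rpl13a, chr7:109519180-109519209 (+) for Rpl27a and chr17:27635230-27635259 (−) for Rps10. Those of the other genes lie at chr7:141447636-141447665 (+) for Rplp2, chr4:86857353-86857382 (−) for Rps6, chr9:44407699-44407728 (+) for Rps25, chr17:33824548-33824577 (−) for Rps28 and chr7:99483695-99483724 (−) for Rps3. The run measured 20 bases in Rpl27a and 18 in Rpl35, against 4 in Rps25 and Rps28 and 2 in Rps3. Annotated starts can be some bases off, and a short run says only that these letters are not at this position.

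Among motifs searched on both strands from 250 bases before to 50 bases after the start, the GABPA motif (CCGGAAG), the site of an ETS factor, was in 18 of the 37 genes (48.6%), in 9.93% of all genes and in 18.8% of tested genes. The GC box (GGGCGG) was in 21 members (56.8%), in 38.2% of all genes and in 68.2% of tested genes. The YY1 motif (AANATGGC) was in 5 members (13.5%), against 6.96% of all and 9.87% of tested genes, and the TATA box (TATAAA) in 5 members, against 15.7% and 8.80%. The E-box (CACGTG), the letters bound by the clock factors CLOCK and ARNTL among others, was in 4 members (10.8%), against 8.09% of all and 11.7% of tested genes. The 250 bases before the start of Rpl35 (chr2:39005132-39005381, −) and of Rps10 (chr17:27635245-27635494, −) are shown as examples with GABPA motifs and GC boxes in capitals, at -127, -87 and -10 in Rpl35 and at -166, -149 and -29 in Rps10, counted from the start to the first base of each match.
Rpl35: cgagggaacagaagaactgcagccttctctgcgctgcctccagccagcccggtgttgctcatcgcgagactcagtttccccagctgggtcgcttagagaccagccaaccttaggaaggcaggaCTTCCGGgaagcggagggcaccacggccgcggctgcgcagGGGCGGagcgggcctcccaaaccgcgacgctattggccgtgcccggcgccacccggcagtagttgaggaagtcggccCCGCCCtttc
Rps10: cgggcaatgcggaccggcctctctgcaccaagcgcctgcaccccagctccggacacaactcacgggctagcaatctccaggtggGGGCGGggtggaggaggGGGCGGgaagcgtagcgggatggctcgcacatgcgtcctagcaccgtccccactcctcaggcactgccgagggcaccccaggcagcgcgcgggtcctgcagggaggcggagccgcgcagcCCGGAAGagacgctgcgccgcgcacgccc
Where a gene has several annotated starts, a motif was counted if any of them held it.

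The 42 genes are not the whole family. RefSeq lists 76 protein-coding genes with such names, and the other 34 had no probe set annotated with their symbol alone. Of the 42 chosen probe sets, 15 carry the suffix _x_at and 1 carries _s_at, which mark probes that can match other transcripts, against 14 with _a_at and 12 with _at. Mean log2 signal over the 12 arrays spanned 1.89 (Rps16) to 14.67 (Rps29), and signals of different probe sets do not rank genes by abundance. The brightest were Rps29 (14.67), Rpl13a (13.78) and Rps28 (13.58). The dimmest were Rps16 (1.89), Rpl12 (4.49) and Rpl14 (4.83), which fell below the lowest mean of the tested probe sets (4.87) and were not tested. All 3 encode proteins of every ribosome, and nothing is said here of their mRNA beyond the signal of these probe sets. The 39 tested members had a median of 12.39, against 7.78 for all 24546 tested probe sets.

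The first comparison asked whether members differed among the 4 ZTs. None of the 39 passed limma's moderated F-test (adjusted p under 0.20, the false discovery rate the study worked with), 0 of 20 in the large and 0 of 19 in the small subunit. Among all tested probe sets 1.93% passed. At an unadjusted p under 0.05 only Rps9 was called, 2.56% of members against 15.5% of all tested probe sets. That count was 5 without ZT9 replicate 3, 4 without ZT9 replicate 1, 4 with quantile normalization, 10 with array weights and 0 to 2 in the other limma fits. The shares of all tested probe sets under this p in these fits are not given here. After adjustment the F-test called 6.08%, 12.3%, 8.73% and 60.0% of all tested probe sets in the first 4 of these fits. The multiclass SAM statistic called no member either. The range of the 4 ZT means had a median of 0.22 on the log2 scale in members, against 0.27 in all tested probe sets, with the largest in Rps9 (0.46), Rps20 (0.44) and Rpl27a (0.42). The smallest adjusted p of a member was 0.281, that of Rps9.

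Most members had their highest and their lowest mean at the same times. The mean was highest at ZT21 in 27 members (69.2%, against 24.7% of all tested probe sets), at ZT15 in 8 and at ZT3 and ZT9 in 2 each. It was lowest at ZT3 in 32 members (82.1%, against 38.98%), at ZT9 in 5 and at ZT21 in 2. These counts rest on members measured on the same 12 mice and on few of those mice: without ZT9 replicate 3 the mean was highest at ZT21 in 12 members, without ZT21 replicate 2 in 16, and without ZT9 replicate 1 it was lowest at ZT3 in 15. Centring each array on its median left 20 members lowest at ZT3 and quantile normalization left 15.

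**Figure D1:**
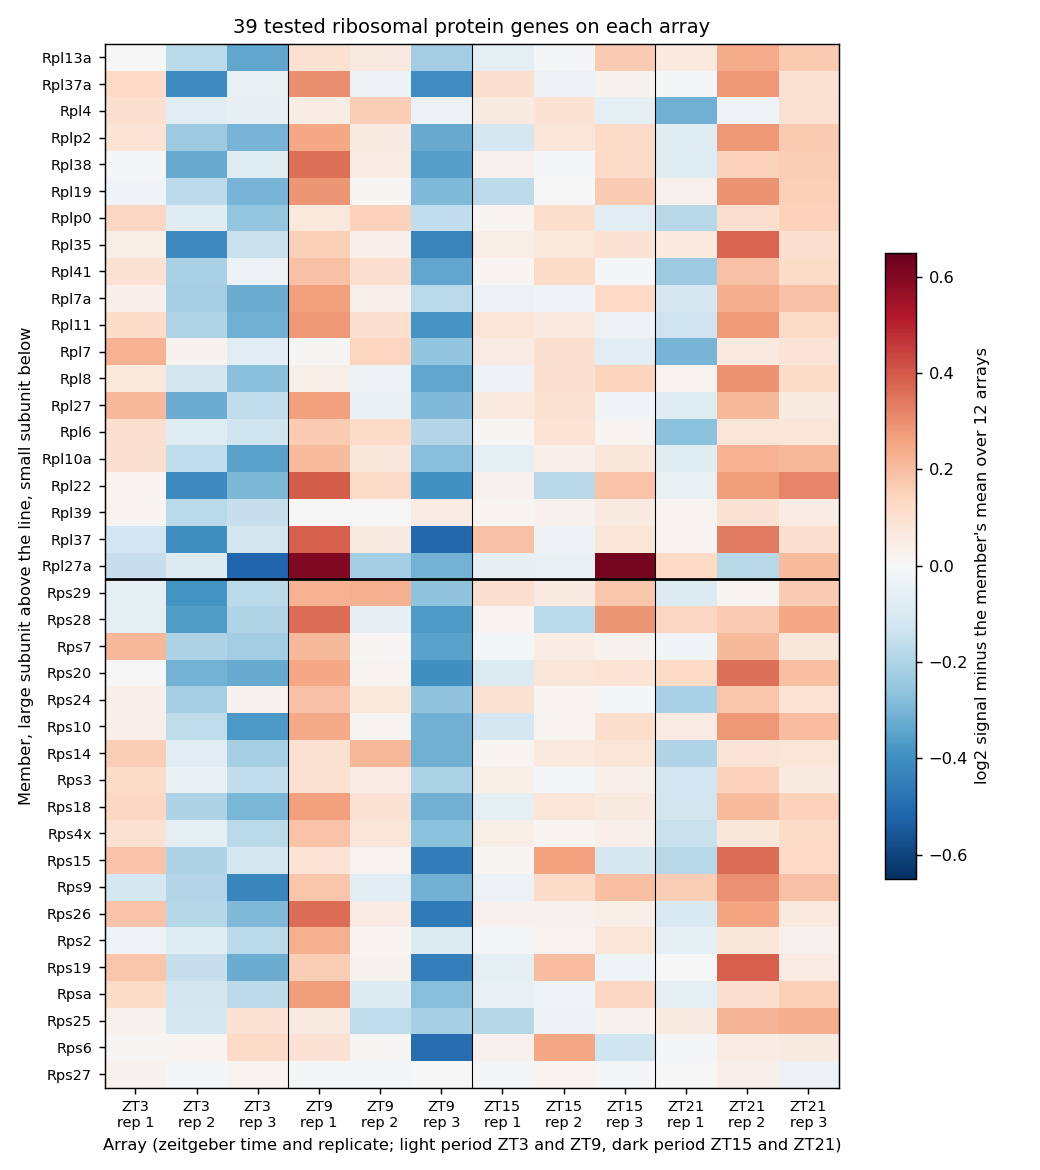
Log2 signal of each of the 39 tested members on each of the 12 arrays, minus the member's own mean over the arrays; rows are genes (20 large subunit above the line, 19 small subunit below, each brightest first) and columns are arrays by ZT and replicate. Whole columns share a colour: ZT3 replicates 2 and 3 and ZT9 replicate 3 are low, and ZT9 replicate 1 and ZT21 replicates 2 and 3 are high.

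The second comparison set the dark period (ZT15 and ZT21, 6 mice) against the light period (ZT3 and ZT9, 6 mice). No member passed at an adjusted p of 0.05 by limma, where 0.0937% of all tested probe sets were higher and 0% lower in the dark. Before adjustment (p under 0.05), 5 members were higher in the dark (12.8% of members, against 8.76% of all tested probe sets) and none was lower (against 6.58%). The 5 depended on single arrays: the count was 1 without ZT3 replicate 2, ZT3 replicate 3, ZT9 replicate 3, ZT15 replicate 3 or ZT21 replicate 2, 2 without ZT15 replicate 2 or ZT21 replicate 3, and 11 without ZT9 replicate 1. The shares of all tested probe sets under this p in these fits are not given here, so these counts stand without a background. The fitted difference was above 0 in 36 members and below 0 in Rpl4, Rpl7 and Rps27, while 51.9% of all tested probe sets were above 0. Its median was 0.12 (quartiles 0.059 and 0.19) in members and 0.0061 in all tested probe sets, and the standard error of a single member was 0.051 to 0.18. Of the 758 tested probe sets at or above the lower quartile of the members' mean signal, members included, 57.7% were above 0. Their median was 0.024. In no member did the 6 dark arrays all lie above the 6 light arrays, which 0.473% of all tested probe sets did, nor all below them, which 0.204% did. Without ZT9 replicate 3, 28 members were above 0 and the median was 0.062; over all 12 arrays left out in turn the median was 0.062 to 0.19, highest without ZT9 replicate 1.

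**Figure D2:**
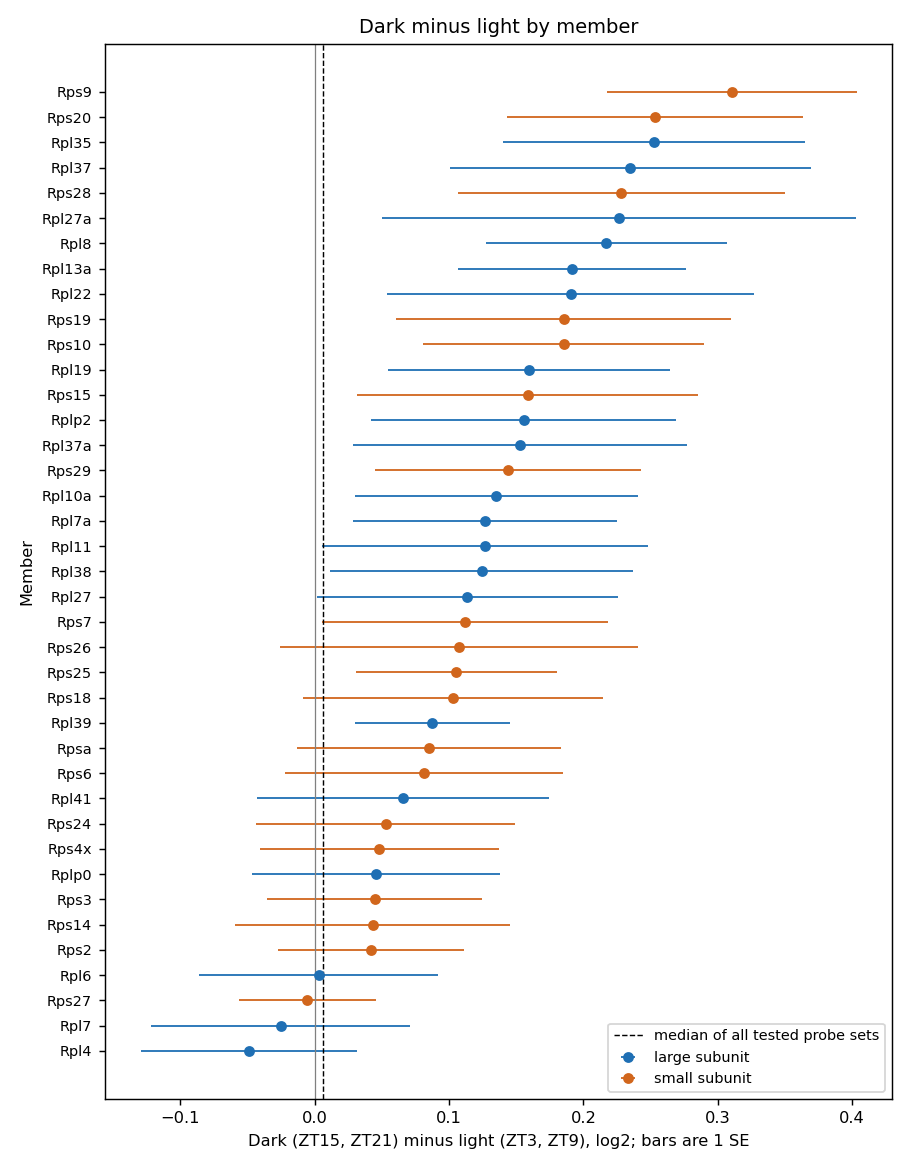
Fitted log2 difference, dark minus light, of each tested member (points; bars are 1 standard error of the limma fit on 12 arrays), ordered by size and coloured by subunit, with the median of all tested probe sets as a dashed line. The difference runs from -0.05 in Rpl4 to 0.31 in Rps9, and both subunits are spread over the whole order.

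Rps9, a protein of the small subunit that binds ribosomal RNA early in assembly, had the largest difference. Its log2 signal was 11.97, 11.89 and 11.66 at ZT3, 12.26, 12.01 and 11.77 at ZT9, 12.05, 12.20 and 12.28 at ZT15, and 12.24, 12.38 and 12.27 at ZT21. The 3 ZT21 arrays lay above all ZT3 arrays, while ZT9 replicate 1 reached into the range of the dark arrays. The mean was 12.24 in the dark and 11.93 in the light, a difference of 0.31 ± 0.093 (SE) with an adjusted p of 0.205. By the same fit its ZT15 minus ZT3 difference was 0.34 ± 0.13 (adjusted p = 0.332).

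Rps20, a protein of the head of the small subunit, read 13.26, 12.95 and 12.93 at ZT3, 13.51, 13.28 and 12.86 at ZT9, 13.17, 13.34 and 13.35 at ZT15, and 13.39, 13.62 and 13.46 at ZT21. Its dark arrays averaged 13.39 and its light arrays 13.13, a difference of 0.25 ± 0.11 (limma adjusted p = 0.306). The groups overlapped, since the ZT9 arrays held both the lowest value of all 12 and one that only ZT21 replicate 2 exceeded.

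Among large-subunit genes, Rpl35, which lines the rim of the tunnel through which the new peptide leaves, read 12.62, 12.16 and 12.43 at ZT3, 12.73, 12.61 and 12.15 at ZT9, 12.62, 12.65 and 12.67 at ZT15, and 12.65, 12.96 and 12.69 at ZT21. Its 3 ZT15 arrays were within 0.05 of each other, whereas its light arrays spread over more than 0.5. The dark mean was 12.71 and the light mean 12.45, which differ by 0.25 ± 0.11 (limma adjusted p = 0.315). Rpl8, next to the peptidyl transferase centre, averaged 12.25 in the dark and 12.04 in the light, with a difference of 0.22 ± 0.090 (limma adjusted p = 0.288). Its lowest dark array read 12.11 and its highest light array 12.21. Rpl13a, known also for a role outside the ribosome in silencing inflammatory mRNAs in human myeloid cells, averaged 13.88 in the dark and 13.69 in the light (difference 0.19 ± 0.085, limma adjusted p = 0.314).

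**Figure D3:**
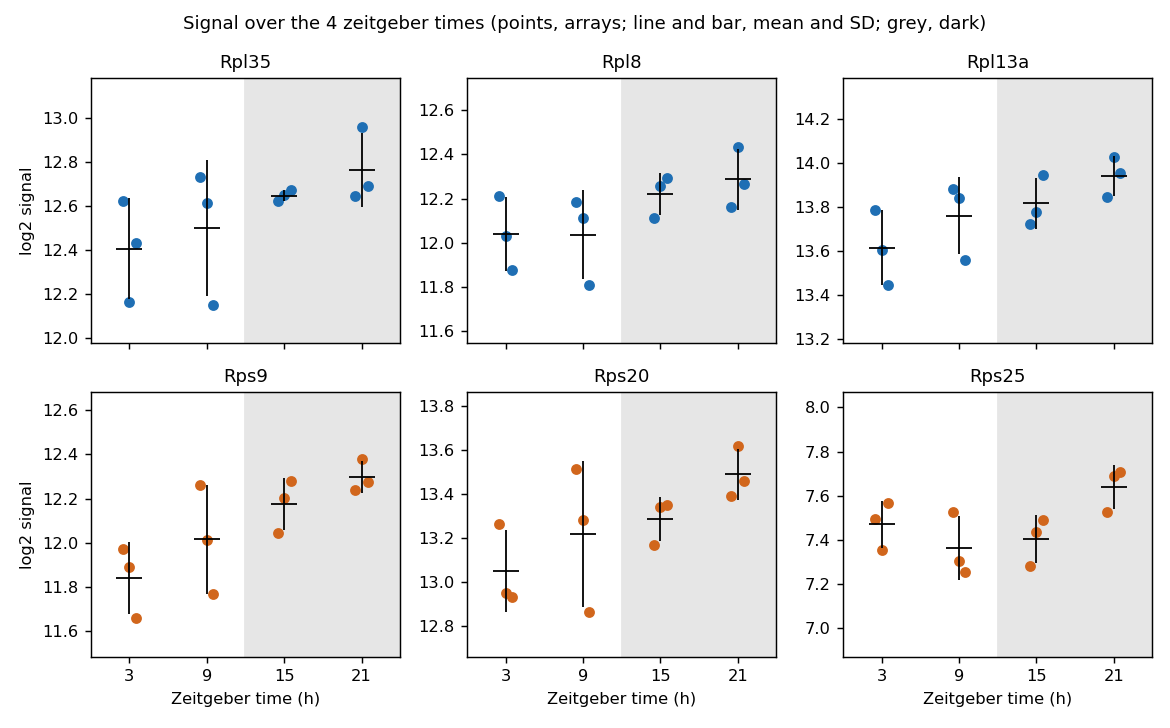
Log2 signal of 6 members against ZT in hours (points are arrays of 1 mouse each, lines and bars are the mean and SD of 3 arrays, grey marks the dark period, all panels span 1.2 log2 units). Rpl35, Rpl8, Rpl13a, Rps9 and Rps20 are the 5 with an unadjusted limma p under 0.05 for dark minus light. Rps25 is the one for ZT21 minus ZT9. In all 6 the SD is largest at ZT9.

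The remaining contrasts compared times 12 h apart. For ZT15 minus ZT3 no member passed at an adjusted p of 0.05 by limma, where 0.22% of all tested probe sets were higher at ZT15 and 0% lower. Before adjustment (p under 0.05), Rps9 and Rps29 were higher at ZT15 (5.13% of members, against 9.85% of all tested probe sets) and none was lower (against 2.68%). The median difference was 0.14 in members and 0.049 in all tested probe sets. In members it was 0.26 without ZT3 replicate 1 and 0.079 without ZT3 replicate 3, 0.061 with median centring and 0.028 with quantile normalization. Among the 758 tested probe sets at or above the lower quartile of the members' mean signal, members included, the median was 0.11, and 88.9% of them were above 0 for this contrast. For ZT21 minus ZT9 no member passed either (0.00407% higher at ZT21 and 0% lower among all tested probe sets), and before adjustment only Rps25 was higher (2.56% of members, against 4.18%) and none was lower (against 9.07%). The median was 0.089 in members, -0.025 in all tested probe sets and -0.075 in the 758 bright ones, and it was -0.044 in members without ZT9 replicate 3. In members it was 0.13 with median centring, 0.16 with quantile normalization and 0.011 with array weights.

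Rps29, a zinc-binding protein of the small subunit, read 14.61, 14.28 and 14.50 at ZT3, 14.90, 14.90 and 14.41 at ZT9, 14.78, 14.73 and 14.85 at ZT15, and 14.58, 14.69 and 14.84 at ZT21. The 3 ZT15 arrays lay above the 3 ZT3 arrays, with a difference of 0.32 ± 0.14 (limma adjusted p = 0.380), and the ZT21 minus ZT9 difference was -0.034 ± 0.14. Rps25, which in human cells and yeast serves initiation at some viral internal ribosome entry sites, read 7.49, 7.36 and 7.56 at ZT3, 7.53, 7.30 and 7.25 at ZT9, 7.28, 7.44 and 7.49 at ZT15, and 7.53, 7.69 and 7.71 at ZT21. Its ZT21 minus ZT9 difference was 0.28 ± 0.11 (limma adjusted p = 0.310), while its ZT15 minus ZT3 difference was -0.068 ± 0.11, below 0 unlike in 36 other members.

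The large and small subunit had similar medians. The median dark minus light difference was 0.13 over 20 Rpl and Rplp genes and 0.11 over 19 Rps and Rpsa genes. For ZT15 minus ZT3 the medians were 0.16 in Rpl and 0.099 in Rps genes, and for ZT21 minus ZT9 they were 0.087 and 0.097. On single arrays the median deviation of Rpl genes minus that of Rps genes lay between -0.029 and 0.050 on all 12 arrays, with a mean of 0.017 in the dark and 0.015 in the light (SD 0.024 and 0.033, n = 6 each).

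Members shared large differences between arrays of the same ZT. The median deviation of the 39 members from their own means was 0.067, -0.18 and -0.18 on the 3 ZT3 arrays, 0.21, 0.035 and -0.31 on the ZT9 arrays, 0.011, 0.032 and 0.059 on the ZT15 arrays, and -0.062, 0.21 and 0.12 on the ZT21 arrays. For the 758 tested probe sets at or above the lower quartile of the members' mean signal, members included, this median was -0.11 to 0.16. It was 0.16 on ZT9 replicate 1, 0.12 on ZT21 replicate 3 and -0.065 on ZT9 replicate 3. On ZT3 replicates 2 and 3 it was -0.091 and -0.097, and on ZT21 replicate 2 it was -0.091, where members were high. On ZT9 replicate 1, 37 of 39 members were above their mean, and on ZT9 replicate 3 only 1 was, although both mice were killed at the same time of day. The signal on ZT9 replicate 1 minus that on ZT9 replicate 3 had a median of 0.54 over members, more than 4 times the median dark minus light difference, and 0.10 over all tested probe sets. It was above 0 in 37 members (94.9%) and in 60.5% of all tested probe sets. Both arrays stood out by the members' own medians, so this count is a description only. ZT15 was the most even time, with 22, 28 and 28 members above their mean. The ZT means of the median deviation were -0.096 ± 0.14, -0.023 ± 0.26, 0.034 ± 0.024 and 0.091 ± 0.14 at ZT3, ZT9, ZT15 and ZT21 (SD, n = 3 each), so that the SD within ZT3, ZT9 and ZT21 was as large as the distance between most of the means.

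Members differed in how closely they kept to this pattern. A total of 26 of the 39 lay on the same side of their own mean as the median of the members on 10 or more of the 12 arrays, which 7.44% of all tested probe sets did, a description only, as the members make up that median. Rpl27a and Rps27 kept to it on 6 arrays and Rps25 on 7. Rpl27a was far above its mean on 2 arrays, at 8.005 on ZT9 replicate 1 and 8.02 on ZT15 replicate 3, against 6.89 to 7.61 on the other 10. Rps27 hardly varied at all, with an SD of 0.020 over the 12 arrays at a mean of 5.04, close to the lowest signal tested.

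**Figure D4:**
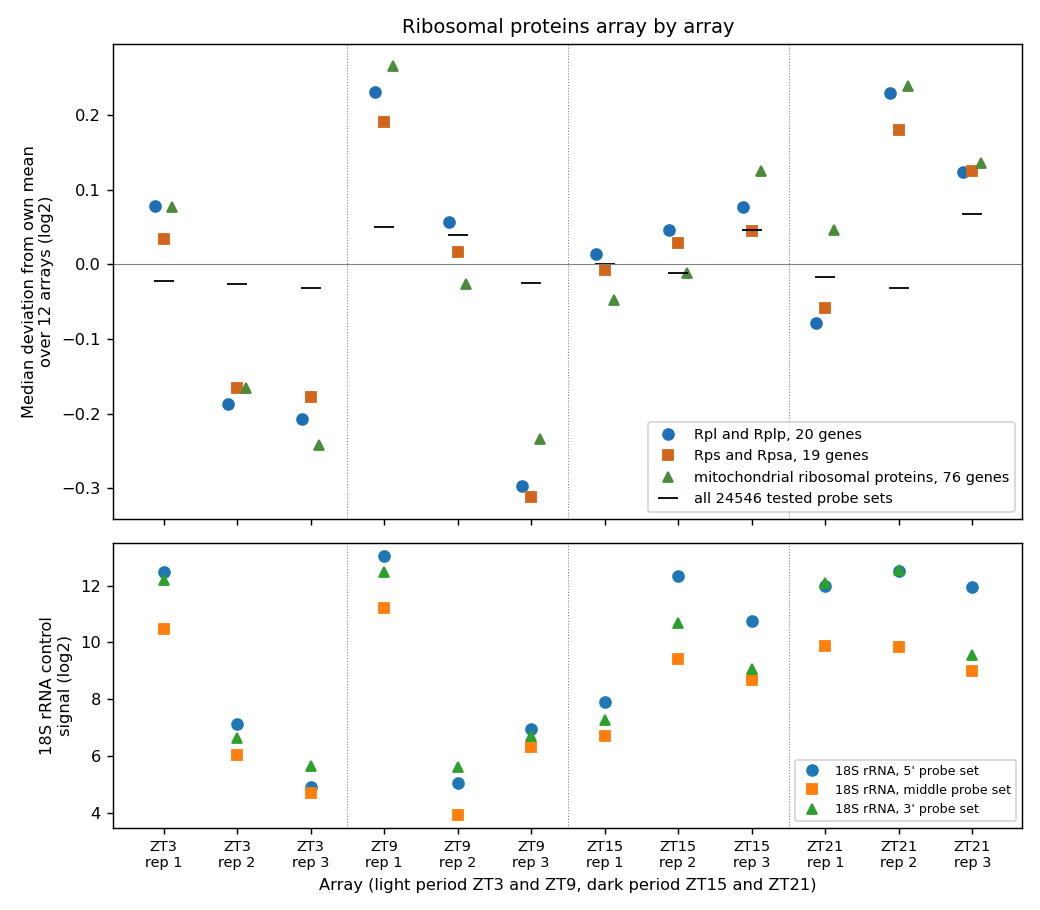
Upper panel, the median log2 deviation from their own 12-array mean of 20 Rpl and Rplp genes, 19 Rps and Rpsa genes, 76 mitochondrial ribosomal protein genes and all tested probe sets, on each array; lower panel, the log2 signal of the 3 control probe sets for 18S ribosomal RNA on the same arrays. The 2 subunits overlie each other between -0.31 and 0.23, and all tested probe sets stay between -0.032 and 0.067. Not drawn, the median of the 758 tested probe sets as bright as most members lay between -0.11 and 0.16. The mitochondrial genes have the other sign from both subunits on ZT9 replicate 2, ZT15 replicate 2 and ZT21 replicate 1.

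Other probe sets had a similar order of arrays. The 40 other tested probe sets of the members had a median deviation of 0.20 on ZT9 replicate 1, -0.31 on ZT9 replicate 3 and 0.21 on ZT21 replicate 2. The 98 tested probe sets that list a ribosomal protein gene together with other genes, mostly pseudogenes, had 0.25, -0.31 and 0.21 on these arrays. By limma's F-test neither group held a call after adjustment, and before it 2 of 40 and 2 of 98 were under 0.05, against 15.5% of all tested probe sets. Of the 98, 86 were higher in the dark, with a median difference of 0.12.

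Several properties of the arrays are set beside the members here, and their part in the result was not tested. The array's control for 18S ribosomal RNA, which is not polyadenylated, read on its middle probe set 10.48, 6.05 and 4.70 at ZT3, 11.20, 3.93 and 6.32 at ZT9, 6.71, 9.40 and 8.66 at ZT15, and 9.89, 9.82 and 9.00 at ZT21 (log2). The 3 arrays with the lowest members read 4.70 to 6.32, and the 4 arrays with the highest members read 9.00 to 11.20. ZT9 replicate 2 did not follow, with the lowest 18S signal and members slightly above their means, nor did ZT21 replicate 1, with 9.89 and members slightly below them. Dark arrays averaged 8.91 ± 1.18 and light arrays 7.11 ± 3.03 (SD, n = 6 each). The 3′ to 5′ signal ratio of the Actb control was 1.58 to 1.93 over the 12 arrays, highest on ZT9 replicate 1, and that of Gapdh was 1.07 to 1.24. Mean intensity was between 392 and 398 on ZT9 replicates 1 and 2, ZT15 replicate 3 and ZT21 replicate 3, and between 344 and 374 on the other 8 arrays. It was 347 both on ZT21 replicate 2, with the highest members, and on ZT9 replicate 3, with the lowest. Their Gapdh ratios were 1.08 and 1.09.

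Marker lists of neurons, astrocytes, oligodendrocytes and microglia were measured on all arrays. The summed signal of 8 neuronal markers was 49598 to 63272 in the dark and 55848 to 68257 in the light. That of 7 oligodendrocyte markers was 36668 to 44990 in the dark and 37768 to 46253 in the light, and that of 7 astrocyte markers 21726 to 29366 in the dark and 24019 to 30374 in the light. The 8 microglial markers summed to 4365 to 5390 in the dark and 4098 to 5098 in the light. The microglial sum was lowest on ZT3 replicate 3 (4098, members at -0.18) and highest on ZT15 replicate 3 (5390, members at 0.059). It was 5098 on ZT9 replicate 1 (members at 0.21), 4304 on ZT9 replicate 2 (0.035) and 4536 on ZT3 replicate 2 (-0.18). On the 3 ZT21 arrays it was between 5114 and 5322, with members at -0.062, 0.21 and 0.12. The 5 endothelial markers summed to 1090 to 1582 in the dark and 1022 to 1341 in the light, lowest on ZT9 replicate 3 and highest on ZT21 replicate 3. The part of microglia and endothelium in the members' values was not tested. The 2 tested markers of the choroid plexus, a tissue that a cortical block should lack, summed to 18823 on ZT15 replicate 1 and 29187 on ZT9 replicate 3 (Ttr and Clic6 together), against 750 to 5538 on the other arrays. ZT9 replicate 3 was also the array with the lowest members, whereas on ZT15 replicate 1 the members stood at 0.011. The 6 tested markers of the striatum summed to 2963 on ZT9 replicate 1 and 2752 on ZT9 replicate 3, against 1514 to 2253 on the other arrays. Cdhr1, the only tested marker of the olfactory bulb, was dim and read 40.8 and 45.7 on these arrays, against 30.9 to 33.3 elsewhere. Members stood at 0.21 and -0.31 there. The part of the choroid plexus, striatum and olfactory bulb in the members' values was not tested.

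The members are described next by their place in the ribosome, and no role list held a call. The P stalk, which recruits elongation factors to the large subunit, was measured by Rplp0 and Rplp2. Rplp0, a common reference gene in quantitative PCR, had ZT means of 12.56, 12.65, 12.65 and 12.65 (limma adjusted p of the F-test 0.927), and Rplp2 had 12.91, 13.06, 13.10 and 13.19 (adjusted p = 0.643). Rpl11, which with the 5S ribosomal RNA can bind MDM2 when ribosome assembly is disturbed, had 12.16, 12.29, 12.33 and 12.38 at ZT3, ZT9, ZT15 and ZT21. Rps6, the substrate of S6 kinase whose phosphorylation is a common readout of mTOR activity, had 6.29, 6.11, 6.29 and 6.27 on a dim probe set (limma adjusted p of the F-test 0.733).

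In the peptide exit tunnel and its surroundings, 5 members were tested, 4 of them above 0 for dark minus light, with a median of 0.16. Besides Rpl35 these included Rpl22, to which a small RNA of Epstein-Barr virus binds in human cells. Rpl22 averaged 11.94 in the dark and 11.75 in the light (difference 0.19 ± 0.14). Rpl19, which takes part in a bridge between the subunits, averaged 13.00 in the dark and 12.84 in the light (difference 0.16 ± 0.10). Rpl4, whose long extension reaches into the tunnel, went the other way, with 13.08 in the dark and 13.13 in the light (difference -0.049 ± 0.080).

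On the small subunit, Rps2 and Rps3 at the entry of the mRNA channel had ranges of the ZT means of 0.14 and 0.053, below the members' median of 0.22. At the exit of the channel, 4 of 4 members were above 0 for dark minus light, with a median of 0.096. Rps28 averaged 13.69 in the dark and 13.46 in the light (difference 0.23 ± 0.12), and Rpsa, known also as the laminin receptor, 11.40 in the dark and 11.32 in the light (difference 0.085 ± 0.098). Rps15, near the decoding centre, averaged 12.23 in the dark and 12.07 in the light (difference 0.16 ± 0.13). Rps10, which sits at the beak of the small subunit, averaged 12.92 in the dark and 12.73 in the light (difference 0.19 ± 0.10).

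Probe sets of the same gene did not always move together. Of the 18 members with 2 or more tested probe sets, 5 had dark minus light differences of both signs, and the spread among the probe sets of a gene had a median of 0.13, about as large as the members' median itself. It was largest in Rps20, from -0.096 on a probe set with a mean of 6.11 to 0.30 on one with a mean of 12.65. In Rps9 the chosen _x_at probe set gave 0.31 and the other tested one, an _s_at probe set with a mean of 10.90, gave 0.049. In Rpl13a the 4 probe sets gave 0.064 to 0.33, with 0.19 on the chosen one. The largest difference among the members, that of Rps9, was thus seen on 1 of its 2 tested probe sets.

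The other genes of translation were taken as lists by role, with 1 probe set a gene, and the background of F-test calls at an adjusted p of 0.20 is the 1.93% given above. None of the lists held a call in the F-test or, at an adjusted p of 0.05, in a contrast. The mitochondrial ribosomal proteins, which build the ribosome of the mitochondrion a separate particle, had medians like those of the members, with no test of the likeness. All 76 measured genes were tested, 69 were above 0 for dark minus light, and the median was 0.14, with 0.15 for ZT15 minus ZT3 and 0.14 for ZT21 minus ZT9. Before adjustment (p under 0.05), 12 were higher in the dark (15.8%, against 8.76% of all tested probe sets), 0 were lower (against 6.58%), and 10 were under the same p in the F-test (13.2%, against 15.5%). Mrpl28 had ZT means of 9.54, 9.54, 9.67 and 10.04 at ZT3, ZT9, ZT15 and ZT21 (limma adjusted p = 0.220), and Mrps11 had 7.02, 7.05, 7.19 and 7.42 (adjusted p = 0.238). On single arrays their median deviation had the sign of the members' on ZT9 replicate 1 (0.27), ZT9 replicate 3 (-0.23) and ZT21 replicate 2 (0.24). It had the other sign on ZT9 replicate 2 (-0.026, members 0.035) and ZT15 replicate 1 (-0.047, members 0.011). The same held on ZT15 replicate 2 (-0.011, members 0.032) and ZT21 replicate 1 (0.046, members -0.062).

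The elongation factors and other mRNAs of the TOP class had medians nearer to those of all tested probe sets for 2 of the 3 contrasts, and the difference from the members was not tested. Their 15 genes had a median of 0.037 for dark minus light, with 10 above 0, 0.13 for ZT15 minus ZT3, with 12 above 0, and -0.075 for ZT21 minus ZT9, with 4 above 0. Eef1a1, which delivers aminoacyl-tRNA to the ribosome, had ZT means of 13.85, 13.98, 13.86 and 13.64, lowest at ZT21 (limma adjusted p of the F-test 0.409), whereas Btf3, a part of the nascent polypeptide-associated complex, had 10.80, 10.98, 11.05 and 11.10 (adjusted p = 0.372). The median deviation of these genes was 0.0082, -0.091 and -0.093 on the ZT3 arrays, 0.13, 0.13 and -0.043 on the ZT9 arrays, 0.031, 0.021 and 0.092 on the ZT15 arrays, and -0.088, -0.15 and 0.098 on the ZT21 arrays. It had the sign of the members' median on 11 of the 12 arrays. The exception was ZT21 replicate 2, where the members stood at 0.21, and on ZT9 replicate 3 the members' value was -0.31.

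The 31 tested initiation factors had a median of 0.016 for dark minus light, with 17 above 0 (54.8%, against 51.9% of all tested probe sets). Before adjustment (p under 0.05), 4 were higher in the dark (12.9%, against 8.76%) and 1 was lower (3.23%, against 6.58%). Eif4ebp2, the repressor of eIF4E that prevails in brain, was highest at ZT15 (8.49, 8.60, 8.91 and 8.59, limma adjusted p = 0.272), and Eif3i had 10.66, 10.96, 11.09 and 11.27 (adjusted p = 0.318). The 30 ribosome biogenesis genes had a median of 0.084, with Rrp1 at 10.59, 10.78, 10.70 and 10.91 and the rRNA methyltransferase Fbl at 8.88, 9.14, 9.08 and 9.20. The 11 RNA polymerase I genes had a median of 0.020, with Polr1c at 8.69, 8.95, 9.01 and 9.04 and Taf1c at 6.56, 6.91, 7.03 and 7.06. The 11 genes of mTOR and S6 kinase signalling had a median of 0.094, and 9 were above 0. Tsc1, which restrains mTOR, had 9.26, 9.56, 9.76 and 9.67 (limma adjusted p = 0.227), and Akt1s1, a part of mTOR complex 1, had 8.55, 8.81, 8.83 and 9.01 (adjusted p = 0.278).

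Ribosomal protein genes outside the name pattern were few, with 4 tested and all 4 above 0 for dark minus light (median 0.28). Rpl7l1, a paralog of Rpl7, had ZT means of 7.90, 8.21, 8.39 and 8.30 (limma adjusted p of the F-test 0.228), and Rps27l, a paralog of Rps27, had 9.02, 9.33, 9.37 and 9.65 (adjusted p = 0.314). Their namesakes among the members had the other sign, with dark minus light differences of -0.025 in Rpl7 and -0.0054 in Rps27, both smaller than their standard errors of 0.096 and 0.051. The Rps27 probe set, with a mean of 5.04, was close to the lowest signal tested, so its sign says little of the gene.

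**Figure D5:**
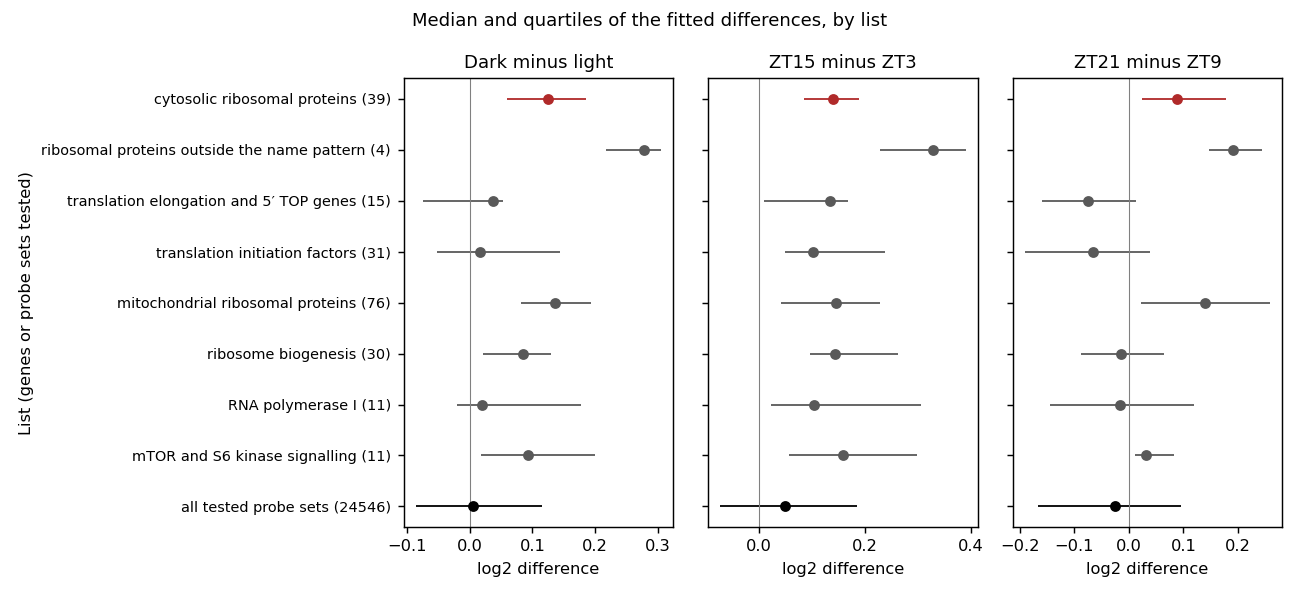
Median (points) and quartiles (bars) of the fitted log2 differences of the 39 members, 7 other lists of translation genes and all tested probe sets, for dark minus light, ZT15 minus ZT3 and ZT21 minus ZT9, with the number tested in brackets. The medians of the members, the mitochondrial ribosomal proteins, the ribosomal proteins outside the name pattern and the mTOR list are above 0 in all 3 contrasts, while those of the elongation, initiation, ribosome biogenesis and RNA polymerase I lists are below 0 for ZT21 minus ZT9.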

How the data were processed

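RNA of the prefrontal cortex was measured on 12 arrays, 1 mouse each, 3 at each of 4 ZTs. The deposited intensity values are GCRMA expression values per probe set on a linear scale, which the authors extracted in GeneSpring 7; detection calls came from MAS 5.0 and are not in the table. The sources used here name neither batch nor scan date. The precision is limited by the number of arrays.

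Intensities were put on the log2 scale; none lay below the floor of 1. The 64 controls were left out, and the 24546 brightest of the 45037 other probe sets, the number the study kept, were tested in limma 3.58.1 (R 4.3.3; lmFit and eBayes, F-test over 4 ZTs at an adjusted p of 0.20, two-sided contrasts at 0.05, Benjamini-Hochberg over all tested probe sets). The calculation was also run on simulated data with independent noise for each probe set and array. Such data lack shifts that many genes share on an array, so they give no rate of false calls for these arrays. Gene names came from the platform annotation, in which 34945 probe sets have 1 symbol, 932 several and 9160 none; positions, promoters and sequences came from RefSeq GRCm38.p6. Tables and plots used pandas 2.3.3 and numpy 2.4.6 under Python 3.11.15, with matplotlib 3.10.9.

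The members and the gene lists were chosen with earlier results of these data known. Named members are the 5 Rpl and 5 Rps genes with the smallest F-test p, the 3 brightest, the 3 dimmest, the 3 with the largest range, those of fixed role lists, and the 3 whose probe sets differ most; of other lists, the 2 genes with the smallest F-test p. Rpl4, Rpl7, Rps27 and Rpl27a as array exceptions were also named after their values were seen. Alternatives were an intensity trend with robust prior, array weights, quantile normalization, median centring, a test of all probe sets or of the brightest 15000, a replicate block, plain suffixes only, the mean of all probe sets of a gene, SAM with 100 permutations and leaving out each array.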

Additional observations from a re-analysis of the deposited data

How the results depend on the processing

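No member was called by the F-test in the main setting. The count was 1 of 39 (Rps9) with quantile normalization, where 8.73% of all tested probe sets were called. It was 1 of 39 (Rps9) without ZT9 replicate 1, where 12.3% of all were called. With array weights it was 14 of 39, and 60.0% of all tested probe sets were called. It was 0 in the other settings, SAM included. Leaving out each array gave 0 to 1. Array weights also gave 1 member in dark minus light, against 0 in all other settings. The share of all tested probe sets called in that contrast with array weights is not given here. The median difference of ZT21 minus ZT9 was -0.044 without ZT9 replicate 3, a change of sign, and 0.24 without ZT9 replicate 1, the lowest and highest values with 1 array left out. The 5 members under an unadjusted p of 0.05 for dark minus light were 1 of 33 with plain suffixes only. They were 2 of 39 with the mean of all probe sets of a gene and 3 of 39 with the replicate block. The shares of all tested probe sets under this p in these fits are not given here. The direction counts were added after the data were seen. With each array left out, members higher in the dark numbered 28 to 38, members highest at ZT21 12 to 35, and members lowest at ZT3 15 to 34; the last was 20 with median centring and 15 with quantile normalization. The causes were not tested. In the fit with the replicate number as a block, 0 members were called in the F-test and 0 in each contrast, the smallest adjusted p of the F-test was 0.389, and 91 probe sets were called in all, against 473 without the block. The number marks no stated litter or day: deviations of same-numbered arrays from their ZT means correlated at -0.50 to 0.49 over 18 pairs, and 3 of 12 arrays matched best with their own number. Over all probe sets the F-test called 40 (without ZT3 replicate 2) to 3013 (without ZT9 replicate 1), 1275 by SAM, 1362 with median centring, 2144 with quantile normalization, 194 with no filter and 1330 of the 15000 brightest.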
